A study of Mus musculus with 2 samples.

Results

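The genes of glycolysis and of the hypoxia response were described in non-immune cells of mouse lung that carried breast tumour cells. The set held 32 genes picked by name: 20 that move glucose and lactate or run and steer glycolysis, and 12 that are known targets or mediators of the hypoxia response. A member was any gene of this list given by symbol in the deposited count tables. Of the 32, 30 were listed in the niche table, 28 in the distal table and 28 in both, among 10198 genes listed in both tables and 11407 listed in either. In both tables stood 18 of the 20 glycolysis genes and 10 of the 12 hypoxia genes, and the ratios below are for these 28. Slc2a3 (a glucose transporter) and Car9 (a carbonic anhydrase) were listed in neither table, and Slc16a3 (a lactate exporter) and Egln3 (an oxygen-sensing hydroxylase) only in the niche table. An unlisted gene was not treated as a count of 0.

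Glycolysis splits glucose to pyruvate in the cytosol. Pyruvate then enters the mitochondria, or lactate dehydrogenase turns it into lactate, which leaves the cell. When oxygen is short, the transcription factor HIF-1, whose oxygen-regulated subunit is encoded by Hif1a, is no longer degraded and binds DNA at hypoxia response elements near genes of glucose uptake, glycolysis, blood vessel tone and mitochondrial turnover. Many of these genes also answer to growth signals and inflammatory cytokines, and several are made at a steady level in most cells.

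The study compared 2 single-cell libraries of CD45-negative mouse lung cells, labelled niche cells and distal lung cells. Lungs were taken 7 days after Labelling-4T1 cells, a modified form of the 4T1 mouse mammary tumour line, had been injected into a vein, so both groups came from lungs that had received tumour cells. The cells were sorted by FACS, but the gates that told niche from distal cells are not in the labels, nor whether injected cells were gated out, or how many mice or which strain were used. Each group was 1 library, so no difference below has a replicate check, and each value describes these libraries.

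There were 1473 barcodes in the niche table and 1996 in the distal one, with 1245 to 9784 UMIs (counted molecules) per barcode in the niche and 685 to 7051 in the distal table. After a filter on few genes, 1423 niche and 1987 distal cells remained, and 7 barcodes were found in both tables. Clustering gave 18 clusters, which fixed markers placed in 4 classes: mesenchymal-like (781 niche and 400 distal cells), endothelial-like (464 and 1204), epithelial-like (94 and 254) and immune-like (51 and 26). An endothelial-like cluster led by Fam167b and Grp (33 and 103 cells) was kept apart, since its 10 leading genes held 1 marker fixed for epithelial cells (Scgb3a1) and none of those fixed for endothelial cells. Over all its leading markers, 13 were endothelial and 1 epithelial. Cells with little Malat1 RNA, a nuclear transcript whose near absence is used as a sign of low-quality barcodes, numbered 149 (niche) and 45 (distal). Whether these were damaged cells was not tested. Sftpc, the surfactant gene of alveolar type 2 cells, lay at 123 CPM in niche and 1889.7 CPM in distal mesenchymal-like cells, so RNA of alveolar type 2 cells was present in droplets of other cells, more in the distal library. Levels are counts per 1000000 UMIs (CPM) over the genes in both tables, summed over the cells of a class or cluster. Differences are log2 ratios of niche over distal level, and every interval is a 95% interval for counting error only. Since UMIs come from the 3′ end and capture differs between genes, a level is compared between libraries or cell types, not between genes. A member was counted as higher or lower when its ratio reached 2-fold and the interval excluded equality, over members with at least 10 UMIs in the class.

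Promoters of 5 members are shown because the results turn on these genes, all known HIF-1 targets. The letters are the RefSeq sequence upstream of the first annotated start (GRCm38.p6, coding strand of each gene), and capitals mark the core of the hypoxia response element, ACGTG or GCGTG, on either strand. A CACGTG stretch holds a core on both strands, and neighbouring cores may overlap. End bases that lie in an annotated exon were trimmed, so the Bnip3 and Ankrd37 stretches stop short of the start. Of the 4 core matches in the untrimmed Ankrd37 sequence, 3 are in the letters shown. Hk2 lies on the minus strand at chr6:82774455-82774704, Bnip3 on the minus strand at chr7:138909520-138909756, Adm on the plus strand at chr7:110627407-110627656, Ankrd37 on the minus strand at chr8:45999868-46000100 and Hilpda on the plus strand at chr6:29272238-29272487.
Hk2: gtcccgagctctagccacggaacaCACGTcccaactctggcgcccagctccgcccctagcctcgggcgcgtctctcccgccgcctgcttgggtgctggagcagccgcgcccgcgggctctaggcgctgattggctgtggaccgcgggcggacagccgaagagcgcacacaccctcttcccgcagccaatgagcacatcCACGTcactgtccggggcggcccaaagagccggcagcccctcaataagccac
Bnip3: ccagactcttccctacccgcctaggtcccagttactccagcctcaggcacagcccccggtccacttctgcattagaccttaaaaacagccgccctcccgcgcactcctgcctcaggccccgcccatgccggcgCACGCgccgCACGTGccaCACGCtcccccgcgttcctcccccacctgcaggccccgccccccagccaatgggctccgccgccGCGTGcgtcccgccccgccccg
Adm: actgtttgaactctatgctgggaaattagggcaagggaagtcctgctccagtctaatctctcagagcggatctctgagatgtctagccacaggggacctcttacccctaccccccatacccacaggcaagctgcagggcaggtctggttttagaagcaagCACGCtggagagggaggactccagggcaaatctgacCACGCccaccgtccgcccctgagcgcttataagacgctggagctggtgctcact
Ankrd37: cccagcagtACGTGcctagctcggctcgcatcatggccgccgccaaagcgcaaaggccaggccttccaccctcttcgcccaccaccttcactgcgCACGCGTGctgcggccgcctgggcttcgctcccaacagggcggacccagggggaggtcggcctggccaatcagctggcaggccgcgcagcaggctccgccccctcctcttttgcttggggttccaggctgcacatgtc
Hilpda: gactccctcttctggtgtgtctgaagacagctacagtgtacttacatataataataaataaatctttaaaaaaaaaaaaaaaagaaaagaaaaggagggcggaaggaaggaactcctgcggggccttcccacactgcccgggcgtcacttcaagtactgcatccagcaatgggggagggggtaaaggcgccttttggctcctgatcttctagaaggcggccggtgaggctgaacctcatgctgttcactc
The Hilpda window held no core. Cores lay between the first and a later annotated start, in bases that are exonic for the longer transcript, and are shown from chr6:29272503-29272532, chr6:29272571-29272600 and chr6:29272596-29272625.
Hilpda, first core: caaccgcgagccGCGTGctttccgtgactc
Hilpda, second core: gatggccagcggACGTGccccagggcgagc
Hilpda, last core: cgagctcgtgcaggttcggtacGCGTGcgc
Of the 32 members, 30 matched a RefSeq promoter (Slc2a3 and Ndrg1 did not). Within the 250 bases before a start, at least 1 promoter held a core for 17 of 19 glycolysis genes (89.5%) and 10 of 11 hypoxia genes (90.9%). The same held for 11226 of 27025 genes of the whole table (41.5%). These are matches of 5 letters, not measured binding. The hypoxia genes were picked as known targets or mediators, and the whole table was not matched to the members for base content. The shares are therefore a description.

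Across the 18 clusters, pooled over both libraries, the members differed widely in how evenly they were spread. The 3 most even members were enzymes of the core pathway. The highest cluster stood 1.40-fold above the median cluster for Gpi1 (glucose-6-phosphate isomerase), 1.73-fold for Aldoa (aldolase A) and 1.77-fold for Pfkl (liver-type phosphofructokinase). Other core enzymes were less even, with 3.98-fold for Tpi1 (triosephosphate isomerase), 5.22-fold for Gapdh (glyceraldehyde-3-phosphate dehydrogenase) and 6.64-fold for Eno1 (enolase 1). Of the 28 members, 6 stood over 10-fold above their median in 1 cluster, some from a low median, such as 6.05 CPM for Hk2. Adm (adrenomedullin, a vasodilator peptide) was 77.7-fold above its median in a mesenchymal-like cluster led by Tcf21 and Slc7a10. Hk2 (hexokinase 2, the inducible enzyme of the first step) was 76.6-fold above its median in a mesenchymal-like cluster led by Cxcl9 and Timp1. Ldhb (the heart-type lactate dehydrogenase subunit) was 34.2-fold above its median in the alveolar type 2-like cluster. Hilpda (a protein that coats lipid droplets and slows fat breakdown) was 24.5-fold above its median in an endothelial-like cluster led by Esm1. Slc16a1 (a lactate transporter) and Ankrd37 reached 13.7-fold and 10.4-fold. These genes were among the inputs to the clustering or could have been, so their spread is a description.

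**Figure D1:**
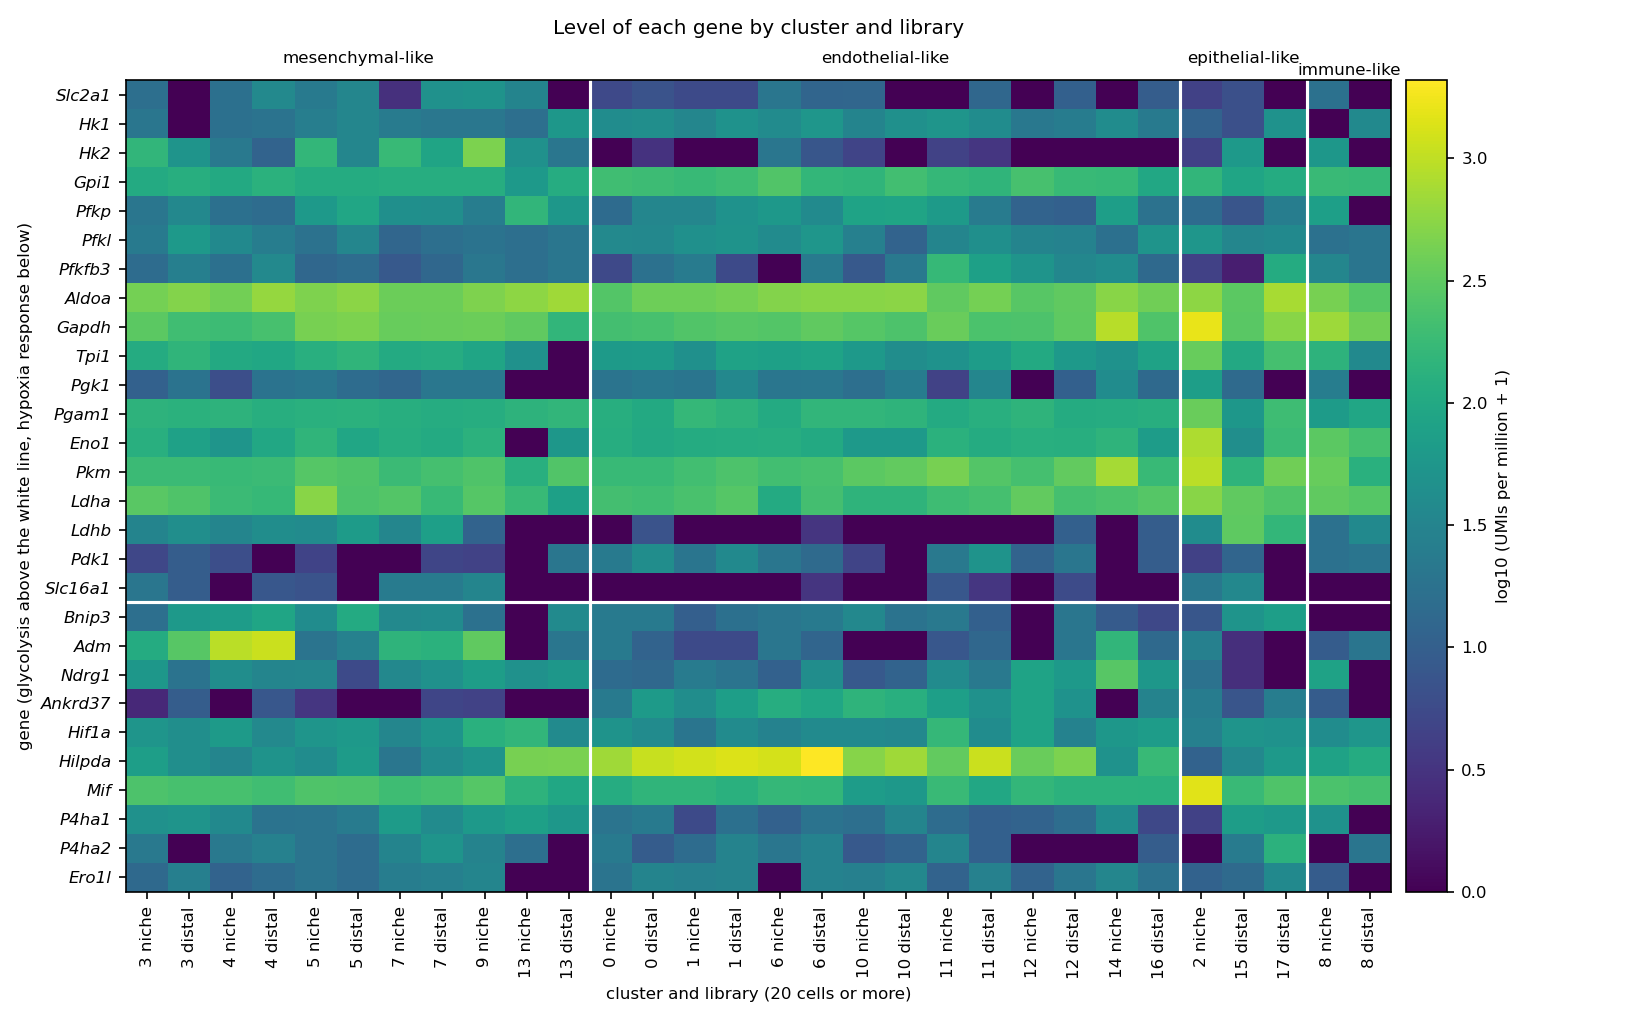
Level of each of the 28 members listed in both tables (rows) in each cluster and library with at least 20 cells (columns), as log10 of CPM plus 1. Hilpda and Ankrd37 are highest in endothelial-like columns, Adm and Hk2 in mesenchymal-like columns, and Aldoa and Gapdh are high in every column. By number, 3 is Mdk-led, 4 Tcf21-led, 5 Agt- and Hhip-led, 7 Pi16-led, 9 Cxcl9-led, 13 pericyte-like, 0 Kit-led, 1 Sox17-led, 6 Esm1-led, 10 Car4-led, 11 Ido1-led, 12 kept apart, 14 lymphatic-like, 16 Vwf- and Cpe-led, 2 Scgb1a1-led, 15 alveolar type 2-like, 17 Ager-led and 8 immune-like.

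The glycolysis genes and the hypoxia genes did not follow 1 common pattern across cell types. Over the 18 clusters the Spearman correlation of the summed hypoxia genes with the summed glycolysis genes was 0.04. Gapdh, Eno1 and Mif (a cytokine induced by HIF-1) were closest to the sum of the other glycolysis genes, with 0.82, 0.74 and 0.66. Hilpda correlated with Ankrd37, an ankyrin-repeat protein known as a HIF-1 target, at 0.63, and with Adm at -0.46. The clusters come from the same 2 libraries and differ in depth and size, so these values describe the clusters and carry no test.

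In mesenchymal-like cells, the fibroblasts and related cells of the lung, the clearest member was Hk2. Its level was 231 (interval 215 to 248) CPM in the niche and 41.7 (interval 29.7 to 57.0) CPM in the distal library, from 738 and 39 UMIs. The log2 ratio was 2.45 (interval 2.0 to 2.97), and the level intervals did not overlap. At least 1 Hk2 UMI was seen in 33.5% of niche and 6.75% of distal mesenchymal-like cells (median depths 3557 and 2080.5 UMIs). Thinned to 1200 UMIs per cell, which left out 47 distal cells and 0 niche cells, the shares were 16.1% and 4.25%. Endothelial-like cells, with median depths of 2336.5 and 1711.5 UMIs, showed Hk2 in 0.862% of niche and 0.415% of distal cells. Of all niche Hk2 UMIs, 97.6% fell in mesenchymal-like cells, whereas 59.6% of the distal ones fell in epithelial-like cells.

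The Hk2 difference was seen within clusters as well. In the cluster led by Agt, Hhip and Aspn the level was 157 against 32.3 CPM, a log2 ratio of 2.19 (interval 1.20 to 3.62). In the cluster led by Mdk and Cxcl14 it was 152 against 51.8 CPM, a ratio of 1.45 (interval 0.39 to 3.03). In the cluster led by Pi16 and Scara5 it was 174 against 85.5 CPM, a ratio of 1.0 (interval 0.34 to 1.77). The Tcf21-led cluster was low in both libraries, at 20.8 against 10.5 CPM, and so were pericyte-like cells, with 3 and 1 UMIs. All 5 mesenchymal-like clusters with at least 20 cells in both libraries had a ratio above 0, and the interval excluded equality in 3. The highest level, 467 (interval 422 to 515) CPM, stood in the cluster led by Cxcl9 and Timp1, where 51.0% of cells had an Hk2 UMI. That cluster held 192 niche and 2 distal cells, Hk2 is among its 10 leading genes, and 60 of its niche cells were low in Malat1. With 1 library per group, such a cluster may be the library and not a type of cell. Without it the class ratio was 1.77 (interval 1.31 to 2.31).

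**Figure D2:**
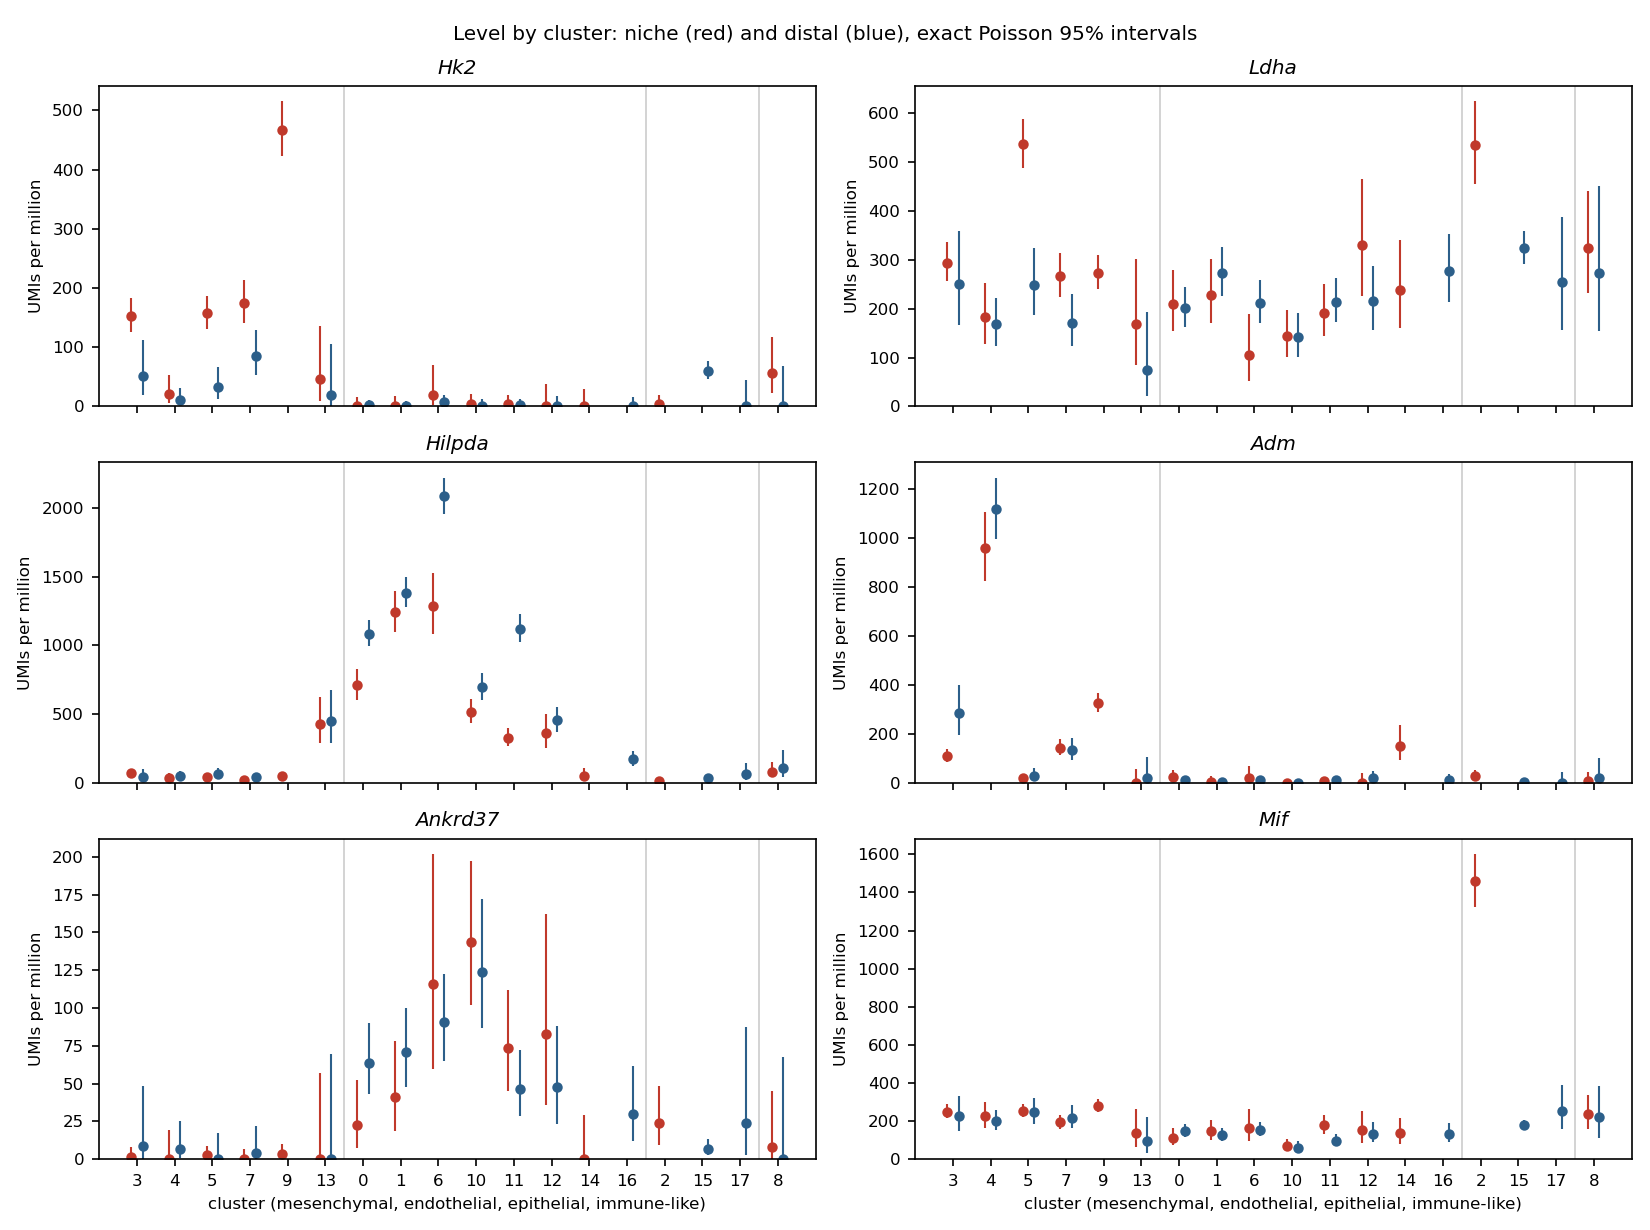
Level in CPM of Hk2, Ldha, Hilpda, Adm, Ankrd37 and Mif in each cluster, with the niche library in red, the distal library in blue and bars for the 95% Poisson interval of the count. Hk2 is above 100 CPM in 4 niche mesenchymal-like clusters and in no distal cluster, and Hilpda is lower in the niche in every endothelial-like cluster with 20 cells in both libraries.

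No other mesenchymal glycolysis gene reached 2-fold. Among all 28 members, 1 was 2-fold higher in the niche (Hk2) and 2 were 2-fold lower (Bnip3 and Adm). Of the 9972 genes measured in the class, 3.35% were higher and 7.51% lower by the same rule, so the share of members was near that of all genes. The median log2 ratio was -0.11 over the members and -0.16 over all genes, and 12 members lay above 0 and 16 below. The 3 members with the most UMIs were Aldoa, Gapdh and Ldha. Aldoa was at 446 against 523 CPM, a log2 ratio of -0.23 (interval -0.38 to -0.08). Gapdh was at 357 against 308 CPM, a ratio of 0.21 (interval 0.02 to 0.40). Ldha, the muscle-type lactate dehydrogenase subunit that favours lactate, was at 338 against 192 CPM, with a ratio of 0.81 (interval 0.58 to 1.05) that stayed under 2-fold.

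Ldha was above equality in 5 of 5 mesenchymal-like clusters, most in the Agt- and Hhip-led one at 537 against 249 CPM, a ratio of 1.09 (interval 0.70 to 1.54). In the Pi16-led cluster it was 267 against 171 CPM, a ratio of 0.63 (interval 0.14 to 1.16), and the intervals of the other 3 held equality. Its partner subunit Ldhb went the other way, at 26.9 against 53.5 CPM, a ratio of -1.0 (interval -1.51 to -0.46) just short of 2-fold. Ldhb was below equality in 4 of the 4 clusters with UMIs in both libraries, and the interval excluded equality in 1. Alveolar type 2-like cells carry most distal Ldhb UMIs (85.9% in epithelial-like cells), and the alveolar type 2 markers summed to 177 CPM in niche and 2418 CPM in distal mesenchymal-like cells. The part of that RNA in the Ldhb difference was not tested.

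Hk1 (the hexokinase of most tissues) was the member nearest to equality, at 21.3 against 21.4 CPM, a ratio of -0.03 (interval -0.74 to 0.79). Slc2a1 (the glucose transporter GLUT1) was at 24.4 against 31.0 CPM, a ratio of -0.36 (interval -0.98 to 0.32). The Cxcl9-led cluster held 43 of its 78 niche UMIs, and without that cluster the ratio was -1.07 (interval -1.82 to -0.30), past 2-fold lower, while clustering at resolution 2 gave 0.27. Eno1 was at 125 against 93.0 CPM, a ratio of 0.42 (interval 0.09 to 0.78). The remaining 10 glycolysis members had ratios between -0.62 (Pfkfb3, which makes the activator of phosphofructokinase) and 0.85 (Slc16a1), and the interval held equality for each of them. Slc16a3, listed only in the niche, had 28 UMIs in this class, 18 of them in the Agt- and Hhip-led cluster and 0 in the Cxcl9-led one.

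The hypoxia targets of mesenchymal-like cells included the 2 members that were lower. Bnip3, which drives removal of mitochondria, was at 28.2 (interval 22.6 to 34.6) CPM in the niche and 72.7 (interval 56.5 to 92.2) CPM in the distal library, a log2 ratio of -1.37 (interval -1.84 to -0.89). It was lower in the Agt- and Hhip-led cluster (39.5 against 106 CPM) and in the Mdk-led cluster (15.2 against 60.4 CPM). The Tcf21-led and Pi16-led clusters differed less, at 67.7 against 87.5 CPM and 35.9 against 38.9 CPM, with intervals that held equality. Adm was at 197 (interval 182 to 213) CPM in the niche and 420.3 (interval 379.8 to 464) CPM in the distal library, a ratio of -1.09 (interval -1.27 to -0.90).

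The Adm difference was not seen alike in every cluster. The Tcf21-led cluster, which carried 73.5% of all distal Adm UMIs, made up 74 niche and 125 distal cells, and its own levels were 958 against 1117 CPM, a ratio of -0.22 (interval -0.49 to 0.04). The Pi16-led cluster had 142 against 132 CPM and the Mdk-led cluster 109 against 285 CPM, the latter a ratio of -1.40 (interval -1.99 to -0.75). In 1 of the 4 clusters with Adm UMIs in both libraries the interval excluded equality. In the Cxcl9-led niche cluster Adm was at 326 CPM, and 1 cell there gave 81 of its 278 UMIs. With each cell weighted the same, the class ratio of Adm was -0.85, no longer 2-fold, and setting the median of all genes to 0 also left it under 2-fold.

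Of the 10 hypoxia members of mesenchymal-like cells, 5 lay above and 5 below 0. Besides Bnip3 and Adm, those below were Hilpda at -0.42 (interval -0.83 to 0.01), P4ha2 and Ankrd37. Hif1a was at 71.3 against 46.0 CPM, a ratio of 0.62 (interval 0.16 to 1.14), with 126 CPM in the Cxcl9-led and 154 CPM in the pericyte-like niche cells, and its class ratio without the Cxcl9-led cluster was 0.15 (interval -0.36 to 0.69). Ndrg1 (a stress-response gene induced by HIF-1) was at 49.1 against 29.9 CPM, a ratio of 0.69 (interval 0.13 to 1.35) that thinning moved to -0.02. P4ha1 (a collagen prolyl hydroxylase) had a ratio of 0.57 (interval 0.01 to 1.22). Mif, P4ha2 and Ero1l (an oxidase that helps disulfide bonds form) had intervals that held equality, and Ankrd37 had only 10 UMIs. Egln3, listed only in the niche, had 31 UMIs in this class, 27 of them in the Agt- and Hhip-led cluster.

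Summed, the 18 glycolysis genes of mesenchymal-like cells were at 2242 against 1953 CPM, a log2 ratio of 0.20 (interval 0.12 to 0.27), and the 10 hypoxia genes at 738 against 933 CPM, a ratio of -0.34 (interval -0.45 to -0.22). Both are under 2-fold. Of the 5 clusters of the class with 20 or more cells per library, 1 had a hypoxia sum above equality and 4 below it, and the interval excluded equality in 0. The Tcf21-led cluster, the highest in Adm, made up 74 of 781 niche and 125 of 400 distal cells of the class, and its part in the lower sum was not tested. In this class low-Malat1 cells made up 10.8% of niche and 5.50% of distal cells, and 12 genes that tissue dissociation is known to induce summed to 17363 and 26229 CPM. Without low-Malat1 cells the Hk2 ratio was 2.47, Bnip3 -1.35 and Adm -1.09. The part of dissociation in these differences was not tested.

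Endothelial-like cells, which line the blood and lymph vessels, held 78.3% of niche and 93.0% of distal Hilpda UMIs. Hilpda was at 632 (interval 589 to 678) CPM in the niche and 1185 (interval 1142 to 1230.1) CPM in the distal library, from 805 and 2804 UMIs. The log2 ratio was -0.91 (interval -1.02 to -0.79), lower in the niche but short of 2-fold. A Hilpda UMI was seen in 59.7% of niche and 67.4% of distal cells. After thinning, which left out 1 and 275 cells, the shares were 46.2% and 58.1%. Epithelial-like cells, deeper at medians of 4139.5 and 5072.5 UMIs, had a Hilpda UMI in 4.26% and 11% of cells before thinning.

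Hilpda was lower in the niche in 5 of 5 endothelial-like clusters with at least 20 cells in both libraries, and the interval excluded equality in 4. The Esm1-led cluster, with Vwf, Efnb2 and Dll4 among its genes, had the highest levels at 1290.4 against 2085 CPM, a ratio of -0.69 (interval -0.96 to -0.43). The Kit- and Aplnr-led capillary-like cluster had 711 against 1085 CPM, a ratio of -0.61 (interval -0.88 to -0.35). The Ednrb- and Car4-led capillary-like cluster had 518 against 696 CPM, a ratio of -0.42 (interval -0.75 to -0.10). The Sox17- and Npr3-led cluster differed least, at 1241 against 1384 CPM, a ratio of -0.16 (interval -0.37 to 0.05). The cluster led by Ido1 and Serpina3g differed most, at 328 against 1120.2 CPM, a ratio of -1.77 (interval -2.11 to -1.45). In the cluster kept apart the levels were 361 against 454 CPM, and in pericyte-like cells, which wrap capillaries, 431 against 453 CPM, both with intervals that held equality.

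The Ido1-led cluster (89 niche and 191 distal cells) also held the members that were higher. Hif1a was at 161 against 39.7 CPM, a log2 ratio of 1.99 (interval 1.19 to 2.91). Pfkfb3, whose product speeds glycolysis in sprouting vessels, was at 164 against 77.0 CPM, a ratio of 1.08 (interval 0.42 to 1.78). Mif was at 178 against 95.7 CPM, Pkm (pyruvate kinase) at 436 against 268 CPM and Gapdh at 363 against 236 CPM, with ratios of 0.89, 0.70 and 0.62 whose intervals excluded equality. In this cluster the hypoxia genes without Hilpda summed to 534 against 271 CPM, a ratio of 0.98 (interval 0.62 to 1.34), while with Hilpda the ratio was -0.69 (interval -0.91 to -0.47). The cluster and its genes were singled out after their values were seen.

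Over the whole endothelial-like class 25 members were measured, and 0 were 2-fold higher and 0 were 2-fold lower. The shares over all 9664 genes were 2.08% higher and 1.70% lower. With a 1.5-fold limit, 3 members were higher (Pfkfb3, Ndrg1 and Hif1a) and 2 lower (Pdk1 and Hilpda), against 3.47% and 4.44% of all genes. Pfkfb3 was at 47.9 against 27.1 CPM, a ratio of 0.83 (interval 0.29 to 1.35). Hif1a was at 65.2 against 40.6 CPM, a ratio of 0.69 (interval 0.24 to 1.12). Ndrg1 was at 47.9 against 29.2 CPM, a ratio of 0.72 (interval 0.19 to 1.23), with its highest levels in lymphatic-like cells (287 against 342 CPM, 34 and 11 cells). Without the lymphatic-like and Ido1-led clusters these 3 ratios turned to -0.49, -0.24 and -0.63, and Hilpda gave -0.58. Pdk1, a kinase that inhibits the mitochondrial enzyme pyruvate dehydrogenase, was at 14.9 against 27.5 CPM, a ratio of -0.85 (interval -1.70 to -0.12).

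No core enzyme of endothelial-like cells reached 2-fold. Aldoa was at 408 against 451 CPM, a ratio of -0.14 (interval -0.30 to 0.01), and lay below equality in 5 of 5 clusters, with an interval that excluded equality in 2. Gapdh was at 348 against 268 CPM and Pkm at 319.7 against 235 CPM, ratios of 0.38 (interval 0.20 to 0.56) and 0.44 (interval 0.26 to 0.63) that moved to -0.03 and -0.04 without the same 2 clusters. The members nearest to equality were P4ha1, P4ha2 and Pgam1, with ratios of -0.02, 0.02 and 0.02. Hk2, Ldhb and Slc16a1 had under 10 UMIs in the class. Ankrd37, of which 79.6% of niche and 87.8% of distal UMIs lay in endothelial-like cells, was at 67.6 against 70.2 CPM, a ratio of -0.05 (interval -0.45 to 0.33). It was highest in the Car4-led cluster (144 against 124 CPM), and only in the Kit-led cluster did its interval exclude equality, at 22.4 against 63.6 CPM, a ratio of -1.39 (interval -3.23 to -0.13).

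The summed glycolysis genes of endothelial-like cells were at 1949 against 1856 CPM, a ratio of 0.07 (interval -0.0011 to 0.14). The summed hypoxia genes were at 1038 against 1543 CPM, a ratio of -0.57 (interval -0.66 to -0.48), and without Hilpda at 405 against 357 CPM, a ratio of 0.18 (interval 0.02 to 0.34). The lower sum therefore rested on 1 gene. Low-Malat1 cells were 1.08% and 1.16% of the class, and the dissociation genes summed to 11788 and 13537 CPM. Mesenchymal and alveolar type 2 markers, signs of RNA from other cells, summed to 571 and 208 CPM and to 510 and 2539 CPM. Their part in the result was not tested. Hilpda was lower in mesenchymal-like than in endothelial-like cells of both libraries.

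**Figure D3:**
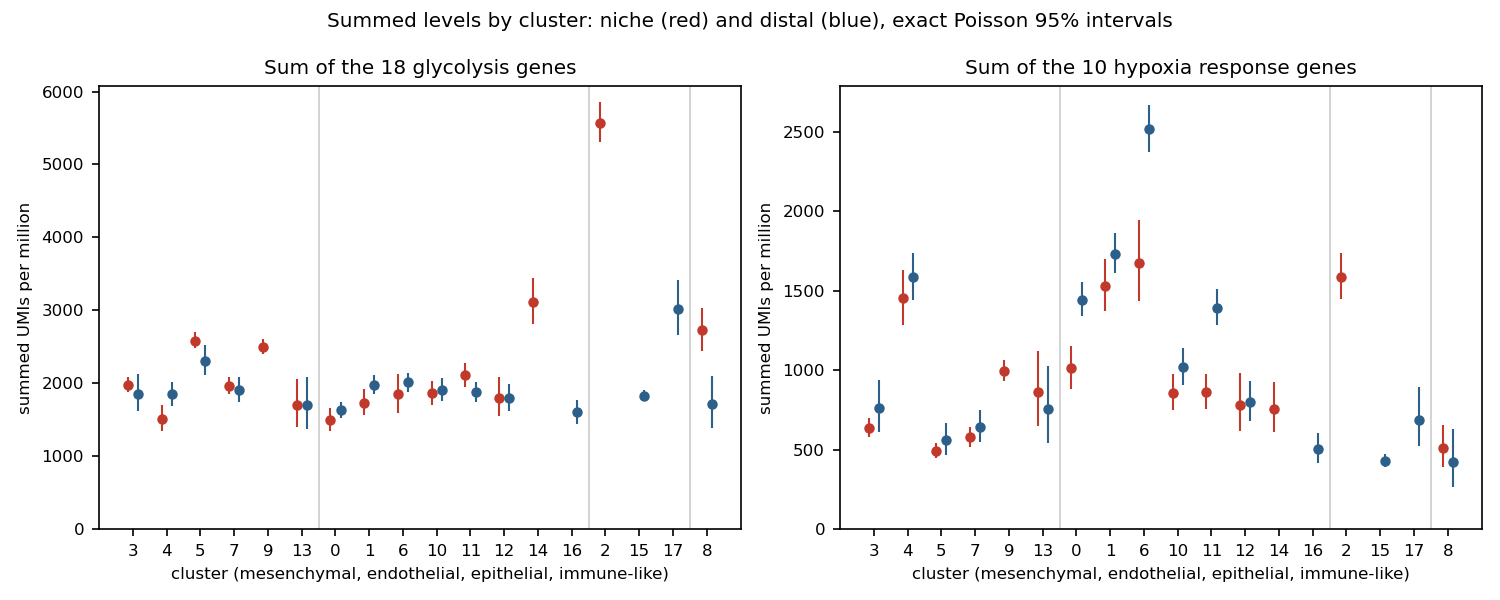
Summed level in CPM of the 18 glycolysis genes and of the 10 hypoxia genes in each cluster, niche in red and distal in blue, with 95% Poisson intervals. The Scgb1a1-led niche cluster stands at 5575 CPM for glycolysis, above every other cluster, and the Esm1-led distal cluster at 2517 CPM for the hypoxia genes.

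In epithelial-like cells the members differed most, and the differences followed 1 cluster. That cluster, led by Scgb1a1, Sfn and Krt8, held 69 niche and 9 distal cells, 73.4% of the niche class against 3.54% of the distal one. Of its 69 niche cells 54 were low in Malat1. Its 10 leading genes also held Phgdh, of serine synthesis, and Cks1b and Cenpa, of cell division, and whether injected tumour cells are among these cells was not tested. Epcam, the defining surface protein of epithelium, was at 371 CPM in its niche cells, and Sftpc at 152 CPM. No epithelial-like cluster had 20 cells in both libraries, and 9 cells are too few to describe the distal side of this one.

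The niche cells of the Scgb1a1-led cluster had the highest summed glycolysis level of all clusters, 5575 (interval 5309.9 to 5851) CPM. Gapdh was at 1625 CPM, Pkm at 934, Eno1 at 819, Ldha at 536, Tpi1 at 354 and Pgam1 (phosphoglycerate mutase) at 364 CPM. Among the hypoxia genes Mif was at 1459.6 CPM, and the other 9 summed to 125 CPM. The next lowest such sum among niche clusters with at least 20 cells was 240 CPM, in the Agt- and Hhip-led cluster. Hilpda had 3 UMIs there, Bnip3 2 and Hk2 1. High enzyme levels stood beside low levels of Hk2 and of the summed hypoxia genes without Mif in the same cells. Adm and Ankrd37 had 8 and 7 UMIs there.

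Over the whole epithelial-like class 26 members were measured. In the niche 9 were 2-fold higher (Eno1, Mif, Pkm, Pgk1, Gapdh, Pgam1, Tpi1, Pfkp and Adm) and 6 were 2-fold lower (Ldhb, P4ha2, Hilpda, Hk2, Bnip3 and P4ha1). Over all 8071 genes measured, 12.4% were higher and 10.3% lower, smaller shares than among the members in both directions. Eno1 had the largest ratio of those higher, 3.52 (interval 3.12 to 3.95), from 608 against 52.8 CPM. Mif had a ratio of 2.61 (interval 2.38 to 2.85), from 1122 against 183 CPM. Pkm, Pgk1 (phosphoglycerate kinase), Gapdh, Pgam1 and Tpi1 had ratios between 1.46 and 2.15. Pfkp (platelet-type phosphofructokinase) and Adm rested on 18 and 11 UMIs in all. Eno1 was marked as uncertain. Its related genes Eno1b, Eno2 and Eno3 were listed only in the niche table, with 26, 33 and 72 UMIs. Reads may have been split between these genes by the counting, which was not tested.

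On the lower side, Ldhb was at 68.3 against 306 CPM, a ratio of -2.14 (interval -2.78 to -1.61), and Hk2 at 17.1 against 54.4 CPM, a ratio of -1.58 (interval -3.04 to -0.55). Hilpda, P4ha2, Bnip3 and P4ha1 had ratios between -1.84 and -1.05. Aldoa and Ldha both had a ratio of 0.64, and Ero1l was nearest to equality at -0.13.

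Without the Scgb1a1-led cluster, 25 niche and 245 distal cells were left, and most of these differences were no longer seen. Then 2 members were higher, Gapdh at 1.05 (interval 0.66 to 1.41) and Pfkp at 2.58 (interval 0.60 to 4.26), and 1 was lower, Ldhb at -1.05 (interval -1.92 to -0.38). Of all 7423 genes then measured, 344 (4.63%) were higher and 61 (0.822%) lower. The median log2 ratio over all genes measured was then 0.30, against -0.04 with the cluster. The glycolysis sum went from 1.27 (interval 1.19 to 1.36) to 0.33 (interval 0.14 to 0.51) and the hypoxia sum from 1.55 (interval 1.37 to 1.72) to 0.29 (interval -0.11 to 0.67). The epithelial hypoxia sum rested on Mif: without Mif it was -0.57 (interval -0.96 to -0.19) over the whole class.

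Alveolar type 2-like cells, which make surfactant, numbered 17 (niche) and 216 (distal). Within them Gapdh was at 705 against 292 CPM, a ratio of 1.28 (interval 0.87 to 1.66), and Ldhb at 137 against 313 CPM, a ratio of -1.14 (interval -2.12 to -0.40). Hk2 did not differ beyond counting error, at 63.1 against 59.7 CPM. This cluster was the only epithelial source of Hk2 of any size, with 6 of the 7 niche UMIs and all 65 distal UMIs of the class. The Ager-led epithelial-like cluster, with 8 niche and 29 distal cells, had a distal glycolysis sum of 3022 CPM.

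In immune-like cells, which a CD45-negative gate should largely remove, 11 members were measured. Pkm alone was 2-fold higher, at 349 against 128 CPM from 43 and 7 UMIs, a ratio of 1.37 (interval 0.28 to 2.85), and 0 were lower. Over 2135 genes the shares were 6.84% and 1.97%, and thinning removed the Pkm call. The members with the most UMIs were Gapdh at 682 against 402 CPM, Aldoa at 438 against 274 CPM and Ldha at 325 against 274 CPM, and Mif was closest to equality with Gpi1, both at 0.07. The glycolysis sum was 2726 against 1717 CPM, a ratio of 0.67 (interval 0.33 to 1.01), and the hypoxia sum 511 against 420.2 CPM, a ratio of 0.28 (interval -0.43 to 1.04). Slc16a3 reached 64.9 CPM in the niche cells, from 8 UMIs.

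**Figure D4:**
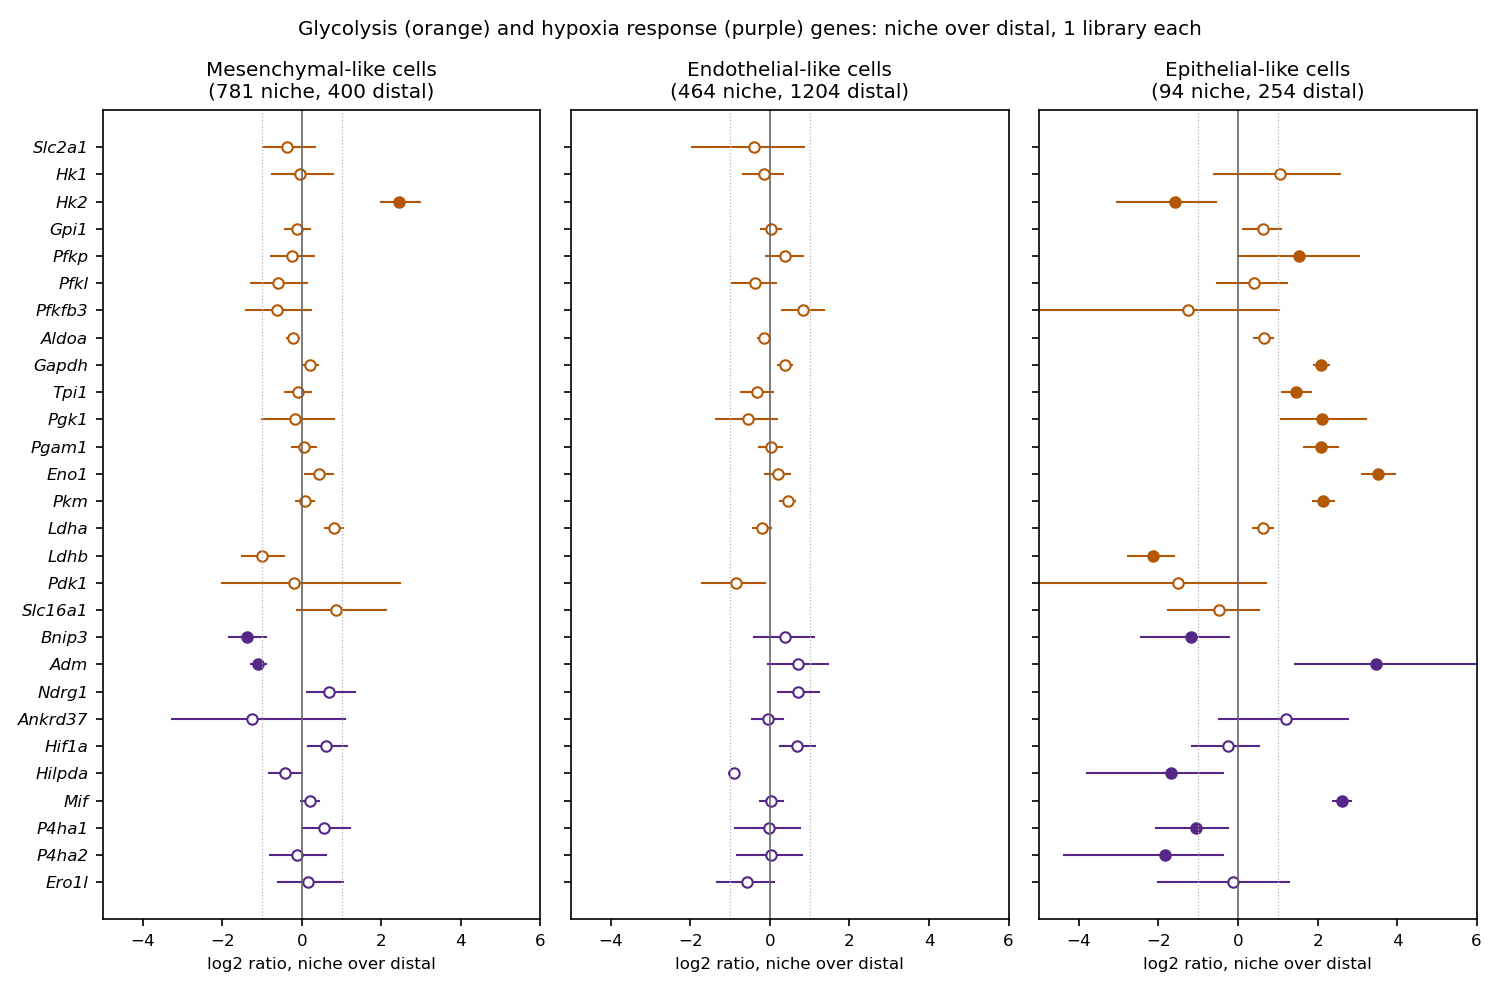
Log2 ratio of niche over distal level for each measured member in mesenchymal-like, endothelial-like and epithelial-like cells, glycolysis in orange and hypoxia response in purple, with the 95% counting interval. Filled points are 2-fold with an interval that excludes equality, dotted lines mark 2-fold in either direction, and some intervals of members with few UMIs run past the axis. Hk2 is filled on the right in mesenchymal-like cells and on the left in epithelial-like cells, and endothelial-like cells have no filled point.

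Genes next to these pathways were read from 7 further lists, chosen with earlier results of these data known. Over all genes measured, 3.35% were 2-fold higher and 7.51% lower in mesenchymal-like cells, and 2.08% and 1.70% in endothelial-like cells. In epithelial-like cells the shares were 12.4% and 10.3%. Pyruvate entry and the citrate cycle showed no 2-fold gene among 21 measured in mesenchymal-like and 21 in endothelial-like cells, with median log2 ratios of -0.20 and 0.07. The pentose phosphate genes, which branch off after the hexokinase step, had 0 of 7 in either class, with medians of 0.23 and -0.13. In epithelial-like cells 4 of these 7 were higher, led by G6pdx at 2.23 and Pgls at 1.57, and 3 of 20 genes of pyruvate entry and the citrate cycle. Of other sugar metabolism genes in mesenchymal-like cells, Bpgm was higher (1.30) and Pfkm, the muscle phosphofructokinase, lower (-1.02), of 7 measured.

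Of the other hypoxia response genes in mesenchymal-like cells, 1 was 2-fold higher and 2 lower, of 20 measured, and the lower ones were Ndufa4l2 (-2.16) and Mxi1 (-1.41). Ndufa4l2 is among the 10 leading genes of the pericyte-like cluster, which held 22 of 781 niche and 35 of 400 distal mesenchymal-like cells. In endothelial-like cells Igfbp3 was lower (-1.30), of 19. Among the oxygen-sensing regulators of mesenchymal-like cells Epas1, which encodes HIF-2 alpha, was lower (-1.34), of 7. The 7 Myc and growth genes all lay above 0 in mesenchymal-like, endothelial-like and epithelial-like cells, with medians of 0.50, 0.53 and 1.88. In immune-like cells 1 of the 5 measured lay above 0 and 4 below, with a median of -0.24. Over all genes measured, 3802 of 9972 mesenchymal-like, 4336 of 9664 endothelial-like, 3828 of 8071 epithelial-like and 1151 of 2135 immune-like ratios lay above 0. Of the Myc and growth genes, only Odc1 in mesenchymal-like cells (1.47) and 5 genes in epithelial-like cells, led by Srm at 3.26, were 2-fold higher. Without the Scgb1a1-led cluster no Myc and growth gene and no pentose phosphate gene was 2-fold higher in epithelial-like cells. Of all genes then measured, 4.63% were.

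The 12 dissociation and immediate early genes had medians of -0.61 in mesenchymal-like, -0.18 in endothelial-like and -1.09 in epithelial-like cells, where 1, 0 and 7 were 2-fold lower. Over all genes measured, 7.51%, 1.70% and 10.3% were lower in these classes. In epithelial-like cells 1 of 12 other hypoxia genes was higher (Anxa2 1.79) and 2 lower, among them Vegfa (-1.50), and 3 of 7 oxygen-sensing regulators were lower. Without the Scgb1a1-led cluster, 0 of 12 other hypoxia genes were higher and 0 lower, and 1 of 7 oxygen-sensing regulators was lower. Then 1 of 12 dissociation genes was lower, and of 20 genes of pyruvate entry and the citrate cycle 0 were higher and 1 lower. Of all genes then measured, 4.63% were higher and 0.822% lower. Vegfa, the endothelial growth factor, was also below equality in endothelial-like cells, at -0.96, without reaching 2-fold. The alveolar type 2 markers summed to 510 CPM in niche and 2539 CPM in distal endothelial-like cells. The part of that RNA in the Vegfa difference was not tested. In immune-like cells 1 of 4 pentose phosphate genes, 1 of 5 other hypoxia genes and 2 of 11 dissociation genes were higher, and 0 were lower. Over all genes of that class, 6.84% were higher and 1.97% lower.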

How the data were processed

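Single-cell RNA libraries of niche and distal cells used 10x Chromium 3′ chemistry, and 50000 reads were aimed at for each cell, per the labels' protocols. Cell Ranger 2.1.1, R 3.4.1 and mm10 are named in the submitters' processing notes, and how the authors filtered cells and genes is not given in the sources used here. The deposited values are unnormalized UMI counts for each listed gene and cell. They sum to 5283584 (niche) and 4791701 (distal), and each table lists its own genes.

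Barcodes under 500 genes or over 10% mitochondrial counts were dropped (50 niche, 9 distal). Clusters came from the Leiden method (resolution 1, 15 neighbours, 20 principal components, 2000 variable genes) on logged values after scaling every cell to 10000, in scanpy 1.11.5 with igraph 0.11.9, scipy 1.17.1 and Python 3.11.15. A cluster took the class with the most leading markers, with at least 3. Doublets were called with Scrublet (11 niche and 21 distal cells, 0.773% and 1.06%) and kept.

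Raw UMIs were summed per library and class. Log2 ratios had 0.5 UMI added to each sum, with exact 95% conditional binomial intervals. Levels have exact Poisson intervals. With 1 library per group no p-value was computed. The steps were tested on simulated counts. Low Malat1 means under 10% of the library's median share.

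The members and lists were chosen with earlier results of these data known. In each class the members with 30 UMIs that reached 2-fold, the 3 highest and the one nearest equality were named, and at most 4 genes per further list, by the interval bound nearest 0. Cluster values, the Ido1-led cluster, the genes listed in 1 table and members named by their spread or at the 1.5-fold limit were chosen after their values were seen. Related or similarly named genes (Eno1b, Eno2, Eno3, Hk3, Pfkm, Pgam5, Ero1lb) were listed too. For this Eno1, Hk1, Hk2, Pfkp, Pfkl, Pgam1 and Ero1l were marked as uncertain. Whether reads were split between such genes was not tested. A gene of the other hypoxia response list is not reported here. Promoters are from RefSeq (GRCm38.p6).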

Additional observations from a re-analysis of the deposited data

Results flagged for a closer look

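For 4 members a class in the niche lay above the distal library and another class below it, each with an interval that excluded equality. Hk2 had a log2 ratio of 2.45 in mesenchymal-like and -1.58 in epithelial-like cells, a gap of 4.03. Adm had 3.47 in epithelial-like and -1.09 in mesenchymal-like cells, a gap of 4.56, the former from 11 UMIs. Of its 9 niche UMIs in epithelial-like cells, 8 lay in the Scgb1a1-led cluster, without which Adm was no longer counted as higher. P4ha1 had 0.57 in mesenchymal-like and -1.05 in epithelial-like cells, a gap of 1.62. Aldoa had 0.64 in epithelial-like and -0.23 in mesenchymal-like cells, a gap of 0.874. These differences between classes were not tested, and without the Scgb1a1-led cluster Hk2 and P4ha1 in epithelial-like cells turned to 0.04 and 0.69.

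The 50 niche barcodes left out for few genes, all low in Malat1, still held member RNA, with a glycolysis sum of 620.4 CPM (interval 469 to 806) and a hypoxia sum of 177 CPM (101 to 288), below the sums of every class of kept cells. The 9 distal barcodes left out had a glycolysis sum of 2205 CPM (1398 to 3308) and a hypoxia sum of 383 CPM (104 to 982), from 23 and 4 UMIs, against 1893 and 1101 CPM in the kept distal cells.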

How the results depend on the processing

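No paired analysis was possible because each group is 1 library. Under the alternatives, 153 values of class sums and counts stayed near the reported value, 41 moved and 2 reversed, and of single members and medians 478 stayed, 44 moved and 18 reversed. The alternatives on the kept-apart, lymphatic-like and Ido1-led clusters, the alveolar type 2-like cluster, ribosomal and mitochondrial genes and Hilpda were chosen after seeing the data. Immune-like cells were 1 cluster, so leaving out a cluster was not run there. Leaving out a cluster, gene or cell group shows only where a difference lies, and no cause was tested.

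Glycolysis sums (log2): mesenchymal-like 0.094 with at least 1000 genes per cell and 0.36 with the median of all genes set to 0; endothelial-like -0.064 thinned and -0.092 without the lymphatic-like and Ido1-led clusters; immune-like 1.22 with at least 1000 genes. The epithelial-like sum was 1.02 with no filter on cells, 1.19 thinned, 0.59 without low-Malat1 cells, 0.33 without the Scgb1a1-led cluster, 0.36 in alveolar type 2-like cells, 1.51 without ribosomal and mitochondrial genes in the totals and 1.04 without Gapdh.

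The mesenchymal-like hypoxia sum was -0.17 with the median set to 0, -0.54 without the Cxcl9-led cluster and -0.55 without Mif. The endothelial-like one was -0.48 without the lymphatic-like and Ido1-led clusters and 0.18 without Hilpda. The epithelial-like one was 1.30 with no filter, 0.36 without low-Malat1 cells, 0.29 without the Scgb1a1-led cluster, 0.51 in alveolar type 2-like cells, 1.78 without ribosomal and mitochondrial genes and -0.57 without Mif. The immune-like one was -0.62 with at least 1000 genes.

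Counts of members past the limit follow, each with the share of all genes past it under the same setting. Mesenchymal-like members higher numbered 2 at resolution 2 (3.58%) or with the median set to 0 (4.77%) and 4 at 1.5-fold (6.25%), and 1 was lower with the median set to 0 (4.76%). Those lower numbered 3 with at least 1000 genes (7.28%), without the Cxcl9-led cluster (5.71%) or at 1.5-fold (13.8%). Endothelial-like members higher numbered 1 with at least 1000 genes (Adm, 2.17%) or without the Car4-led cluster (Pfkfb3, 2.43%) and 3 at 1.5-fold (3.47%), where 2 were lower (4.44%). Epithelial-like members higher numbered 3 without low-Malat1 cells (6.97%), 2 without the Scgb1a1-led cluster (4.63%) and 1 in alveolar type 2-like cells (4.09%). Thinned, they numbered 6 of 18 measured (11.8%), and at 1.5-fold 12 (16.6%). Those lower numbered 0 without low-Malat1 cells (1.24%) and 1 thinned (8.25%), without that cluster (0.822%) or in alveolar type 2-like cells (0.744%). Immune-like members higher numbered 2 with at least 1000 genes (5.99%), no filter (6.76%) or 1.5-fold (7.73%), and 0 thinned (6.20%).

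Mesenchymal-like Ndrg1 turned to -0.022 when thinned. Without the lymphatic-like and Ido1-led clusters, endothelial-like Pfkfb3 was -0.49, Gapdh -0.029, Pkm -0.035, Ndrg1 -0.63 and Hif1a -0.24. In epithelial-like cells without the Scgb1a1-led cluster, Hk2 was 0.039, Pgk1 -1.49, Bnip3 0.31 and P4ha1 0.69. In alveolar type 2-like cells Hk2 was 0.19, Pgk1 -1.34, Eno1 -0.70, Bnip3 0.61, P4ha1 0.92 and P4ha2 0.17. Without low-Malat1 cells Bnip3 was 0.14 and P4ha1 0.35.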
